A study of Mus musculus with 16 samples.

Results

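The comparison set mouse cells differentiated from induced pluripotent stem cells (iPSCs) in medium with recombinant human WNT1 and recombinant human DKK3 against cells differentiated without them. The members were chosen by the titles of the samples: 5 treated and 5 control arrays, 10 of the 16 arrays of the series. Primary neurons on the other arrays were not used. All 10 arrays carried RNA of cells with the genotype Pitx3GFP/+ on the strain background C57BL/6 x 129/Ola (mixed), so treated and control cells alike had GFP at 1 allele of Pitx3, a transcription factor of midbrain dopaminergic (mdDA) neurons. The design text says that GFP-positive cells were sorted, whereas the labels name the sort only for the primary cells. Doses, days of treatment, the number of iPSC lines and whether replicates came from separate cultures are unknown here. The titles call the arrays of both groups biological replicates without saying what was replicated, so the p-values reflect how far these samples scatter. Replicates of both groups are numbered 1 to 5, and the titles do not state whether arrays with the same number form a pair. Each result is therefore given without a block and with the replicate number as a block, a term that compares treated with control within each number.

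WNT1 is a secreted ligand that, through Frizzled receptors and the co-receptors LRP5 and LRP6, stabilises beta-catenin and is needed early in the midbrain for the dopaminergic lineage. DKK3 belongs to the Dickkopf family of secreted proteins, whose best known members bind LRP5 and LRP6 and block this branch, and DKK3 differs from them in its action. Dopaminergic neurons of the substantia nigra, the group lost in Parkinson's disease, and of the ventral tegmental area share the enzymes and transporters of dopamine and differ in such genes as Sox6 and Otx2. The comparison asked whether levels of dopaminergic and other genes differ between iPSC-derived cells with and without the 2 added proteins. If the cells were sorted by GFP, as the design text says, these levels do not show how many cells became dopaminergic neurons.

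Levels are log2 values after RMA normalisation, a scale on which 1 unit is a 2-fold change, and every difference below is treated minus control on that scale. The median gene of an array stood at 6.37 to 6.44 and the lower quartile of genes at 4.84 to 4.97. The arrays correlated at 0.957 to 0.990 over probe sets, which are not independent replicates, and no pair of arrays held identical values. The replicate number took 75.7% of the total variation over genes with 4 degrees of freedom, the treatment 4.50% with 1, and the remainder 19.8% with 4. Without the arrays numbered 5 these shares were 64.9%, 7.41% and 27.7%. Number 5 stands apart in several genes of dopaminergic neurons. The dopamine transporter gene Slc6a3 lay at 4.92 to 5.27 on the arrays numbered 1 to 4 and at 8.87 (treated) and 8.44 (control) on those numbered 5. Nanog, a gene of pluripotent cells, lay at 8.42 to 10.14 on the former and at 6.40 and 6.42 on the latter. Th, Slc18a2 and Ddc were likewise highest on number 5 in both groups, as given below, whereas Pitx3 lay at 5.60 to 6.17 on all 10 arrays and was no higher there. These markers thus differ on how far number 5 stands apart, and without a detection call their absence from numbers 1 to 4 cannot be stated. In such bulk samples, fewer cells of a type and less RNA per cell cannot be told apart.

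Across 19938 genes, few differences between treated and control arrays exceeded the spread between replicates. Without the block, 0 genes (0% of those tested) passed an adjusted p of 0.05 (limma, Benjamini-Hochberg), and the smallest adjusted p was 0.753. At an unadjusted p under 0.05 there were 300 genes, of which 214 (1.07% of genes) were higher and 86 (0.431%) lower in treated cells. With the replicate number as a block, 1 gene, Mir17, rose (0.00502% of genes) and 0 fell (0%), and every other gene had an adjusted p of at least 0.999. At an unadjusted p under 0.05 this model held 837 genes, 510 higher (2.56%) and 327 lower (1.64%), and 266 genes met that limit in both models. The split by direction turned on the scaling: with each array centred on its median it was 152 higher and 138 lower without the block and 375 and 459 with it, and after another quantile normalisation 174 and 136, and 374 and 436. The median difference over all genes was 0.02 and the median absolute difference 0.07.

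The intervals bound how large an unseen difference could be. The 95% confidence interval lay within 2-fold either way for 97.1% of genes without the block and 99.8% with it, and within 1.5-fold for 85.5% and 97.1%. The largest negative mean difference, -1.19, belonged to Prl7a1, a placental prolactin-family gene named here for its size after its values were seen. Prl7a1 lay at 3.75, 3.60, 4.13, 4.27 and 3.78 on treated arrays 1 to 5 and at 4.54, 4.55, 7.59, 5.01 and 3.81 on control arrays 1 to 5. Control array 3 alone was far above the rest, and the gene did not pass in either model (limma unadjusted p = 0.0602 without and 0.013 with the block). It was the 1 gene with a mean difference of at least 2-fold. Within single numbers such differences were common in some and rare in others: 73 genes were at least 2-fold higher and 131 lower at number 1, 83 and 48 at number 2, 7 and 10 at number 3, 9 and 5 at number 4, and 59 and 26 at number 5. No gene (0) differed by 2-fold in the same direction at all 5 numbers, and 1 gene, Mir17, was at least 1.5-fold higher at all of them. The unadjusted p-values piled up toward 1 without the block and lay nearly evenly with it, apart from a lower first bin, as the histograms show.

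**Figure D1:**
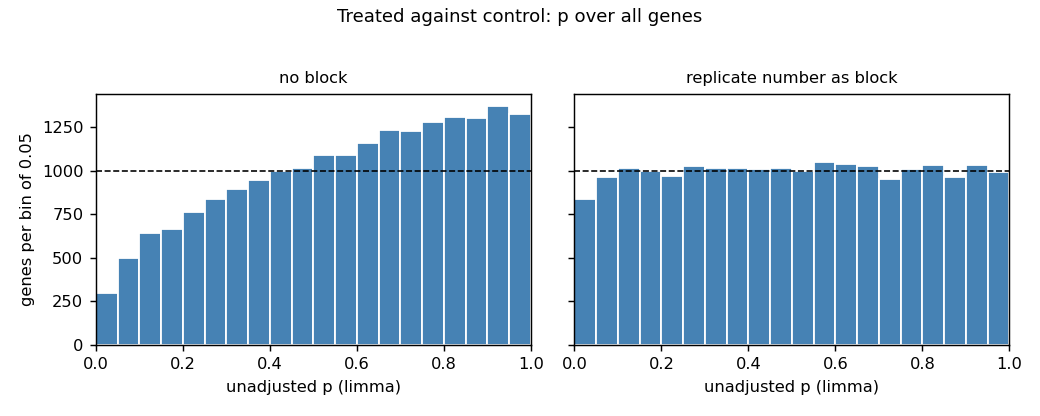
Histograms of the unadjusted p of treated against control over 19938 genes (limma), in bins of 0.05, without a block (left) and with the replicate number as a block (right); the vertical axis counts genes and the dashed line is the height of an even spread. The lowest bin holds 300 genes on the left and 837 on the right, both under the dashed line.

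Mir17 is the gene of miR-17, the first hairpin of a cluster of microRNAs cut from 1 host transcript, Mir17hg, and known for promoting proliferation. A microRNA recognises its targets mainly through its seed, bases 2 to 8. Of the cluster's members, miR-17-5p and miR-20a-5p, which share a seed, are shown beside miR-18a-5p and miR-19a-3p, which do not have it. Values of neighbouring hairpins differ although they leave the same transcript, and a link of the seed to those values was not tested. The sequences shown are from RefSeq, annotated on GRCm38.p6, with the seed in capitals, 5′ to 3′. For the array's own probe table no build is stated in the labels or the table.
mmu-miR-17-5p: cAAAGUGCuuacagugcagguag
mmu-miR-20a-5p: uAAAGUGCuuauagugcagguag
mmu-miR-18a-5p: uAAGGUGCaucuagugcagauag
mmu-miR-19a-3p: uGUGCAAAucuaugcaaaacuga
The hairpin of Mir17 lies at chr14:115043671-115043754 on the plus strand and is printed with the 5p arm's stretch in capitals.
Mir17 hairpin: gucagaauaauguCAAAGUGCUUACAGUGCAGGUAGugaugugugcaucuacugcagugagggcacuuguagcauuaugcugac
Of 1738 mature mouse miRNAs in the RefSeq table, 7 hold the seed AAAGUGC, namely miR-17-5p, miR-20a-5p, miR-20b-5p, miR-93-5p, miR-106a-5p, miR-106b-5p and miR-6383. The array measures amplified total RNA, and whether its Mir17 probe set read the hairpin, the host transcript or the mature miRNA was not tested.

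Mir17 lay at 5.88, 5.84, 5.96, 6.14 and 5.59 on treated arrays 1 to 5 and at 4.74, 4.96, 5.00, 5.34 and 4.61 on control arrays 1 to 5. Every treated array was above every control array. The mean levels were 5.88 ± 0.20 (SD, n = 5) and 4.93 ± 0.28 (n = 5). These levels are low: the treated mean was above that of 40.5% of genes and the control mean above that of 25.1%. Control arrays 1 and 5 lay below the lower quartile of genes on the same array, 4.96 and 4.91. The difference was 0.95, or 1.94-fold, with a 95% interval of 0.64 to 1.27 without the block (limma adjusted p = 0.753) and of 0.77 to 1.14 with it (limma adjusted p = 0.0154). Within the numbers it was 1.14, 0.88, 0.96, 0.80 and 0.98. The size was the same in both models by construction, and the call was made only where the number was a term of the model. The call with the block was lost when both arrays of any 1 number were left out, with limma adjusted p between 0.058 (without number 1) and 0.181 (without number 5), and when all 35556 probe sets were tested (0.263).

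The other members of the cluster did not follow Mir17 evenly, and none of them passed the test. Mir17hg, the host gene, lay at 5.05, 4.96, 4.84, 5.16 and 5.06 on treated and at 4.97, 4.83, 4.89, 4.81 and 4.73 on control arrays, a difference of 0.17 (-0.01 to 0.35 without the block). Mir18, the next hairpin, lay at 4.52, 4.81, 4.55, 4.64 and 4.18 on treated and at 3.89, 3.85, 4.31, 4.84 and 3.61 on control arrays. Mir18 was higher in treated cells at 4 of 5 numbers, with a difference of 0.44 (0.11 to 0.77 with the block, limma unadjusted p = 0.0152). Mir18 lay below the lower quartile of genes on every array, and Mir17hg lay near it. Mir19a differed by 0.13 and Mir20a, which has the seed of miR-17-5p, by 0.32, whereas Mir19b-1 differed by -0.37, and the intervals of all 3 with the block included 0. Mir19b-2, of the related cluster on the X chromosome, differed by -0.32 and was lower in treated cells at all 5 numbers (limma unadjusted p with the block = 0.0215). Mir106a, Mir20b, Mir92-2, Mir363, Mir106b, Mir93 and Mir25 differed by -0.12 to 0.07. Mir92-1 shares a probe set with Mir17hg and was left out. Of 14 measured genes of these clusters, 10 had a higher mean in treated cells (56.6% of all genes), and their median difference was 0.07 against 0.02 over all genes.

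**Figure D2:**
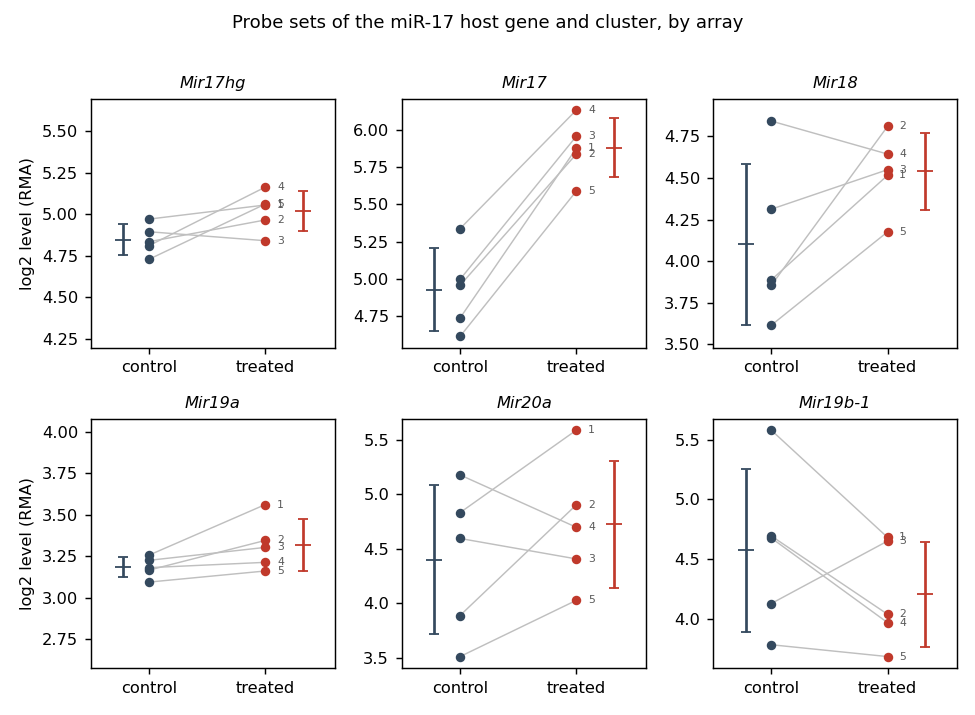
Log2 levels of the host gene Mir17hg and of 5 hairpin genes of the miR-17 cluster on control (dark) and treated (red) arrays; grey lines join equal replicate numbers, which the titles do not call pairs, and bars at the sides give mean and SD (n = 5). Mir17 is the panel in which the groups do not overlap, with treated arrays at 5.59 to 6.14 and control arrays at 4.61 to 5.34.

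No enzyme or transporter of dopamine passed the test, and the levels followed the replicate number more than the treatment. Th, the rate-limiting enzyme of dopamine synthesis, lay at 5.93, 5.29, 5.79, 5.56 and 9.22 on treated arrays and at 6.17, 5.75, 5.34, 5.90 and 8.52 on control arrays. Its difference was 0.02, with a 95% interval of -1.71 to 1.75 without the block and -0.36 to 0.40 with it. Th was higher in treated cells at numbers 3 and 5 and lower at the others. Slc6a3 differed by 0.03 (-0.19 to 0.26 with the block), Slc18a2, the vesicular monoamine transporter, by 0.04 (-0.34 to 0.42) and Ddc, the enzyme that makes dopamine from L-DOPA, by 0.01 (-0.25 to 0.28). With the block, the limits of these 4 genes reach from -0.36 (Th) to 0.42 (Slc18a2), and without it they are wider. They bound the mean over numbers only. On numbers 1 to 4, Slc6a3 (4.92 to 5.27) and Slc18a2 (4.80 to 5.52) lay near the lower quartile of genes. At number 5 the differences were 0.70 (Th), 0.42 (Slc6a3), 0.81 (Slc18a2) and 0.51 (Ddc), each above its gene's upper limit with the block. Treated cells were lower at 4 numbers for Slc6a3, 3 for Th and Slc18a2 and 2 for Ddc. Over the 16 measured genes of dopamine synthesis, storage, uptake and receptors the median difference was 0.04, and within number 5 alone it was 0.45. The sign of that median turned when the arrays numbered 5 were left out.

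Slc10a4, a vesicular transporter-like protein of monoaminergic and cholinergic neurons, was the member with the largest difference. It lay at 5.42, 6.11, 5.40, 5.64 and 8.24 on treated arrays and at 5.24, 5.29, 5.17, 5.36 and 7.20 on control arrays. Treated cells were higher at all 5 numbers, as were 720 genes (3.61% of all), and the difference of 0.51 (0.21 to 0.82 with the block) did not pass (limma adjusted p = 0.999 with the block). The sign turned without treated array 5 in the unblocked means, where control array 5 (7.20) stayed in. It did not turn when both arrays numbered 5 were left out. Gfra1, a receptor subunit for GDNF, a factor that supports dopaminergic neurons, differed by -0.22 (-0.43 to -0.01 with the block).

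No transcription factor of the lineage passed the test. Nr4a2, needed for the dopaminergic transmitter phenotype, lay at 7.18, 6.84, 7.10, 7.10 and 9.16 on treated and at 7.02, 7.03, 7.24, 7.05 and 8.67 on control arrays, a difference of 0.07 (-0.17 to 0.32 with the block). Pitx3, which holds GFP at 1 allele in every sample, lay at 5.67 to 6.17 on treated and 5.60 to 6.16 on control arrays, also at number 5, and differed by 0.03 (-0.15 to 0.21). En1, a midbrain-hindbrain factor that keeps these neurons alive, differed by 0.04 (-0.13 to 0.22) and Foxa2, a factor of the floor plate, by 0.14 (-0.07 to 0.35). Among the 17 measured factors the median difference was 0.04. Of these, 12 had a higher and 5 a lower mean in treated cells. Ebf1, a helix-loop-helix factor, was the 1 member at an unadjusted p under 0.05 with the block, where 1.64% of all genes were lower. Its difference was -0.24 (-0.46 to -0.02). Ebf1 was lower in treated cells at all 5 numbers, as were 441 genes (2.21% of all), which the choice by p with the block favours. Pbx3 differed by -0.22 (-0.55 to 0.10).

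No marker of the dopaminergic subsets passed the test either. Sox6, a factor of the nigral subset, lay at 7.26, 6.72, 7.31, 7.09 and 6.79 on treated and at 6.64, 7.26, 7.37, 7.01 and 6.84 on control arrays, and differed by 0.01 (-0.31 to 0.33 with the block). Otx2, a factor of the tegmental subset, lay at 8.56, 7.78, 8.39, 7.90 and 8.04 on treated and at 8.52, 8.52, 8.48, 8.18 and 7.68 on control arrays, and differed by -0.14 (-0.46 to 0.17). Both genes had overlapping groups and numbers in either direction. Aldh1a1, a retinoic acid enzyme of ventral nigral neurons, was at 9.64 and 8.98 on the treated and control arrays numbered 5 and at 6.22 to 6.99 on all others, and differed by -0.07 (-0.41 to 0.28). Calb1, calbindin, a marker of tegmental neurons, differed by -0.02 (-0.27 to 0.22). Of 16 nigral markers 0 and of 15 tegmental markers 2 were at an unadjusted p under 0.05 with the block, against 2.56% of all genes higher and 1.64% lower. These 2 were Cck, a neuropeptide, at a difference of 0.34 (0.09 to 0.59), and Slc32a1, the vesicular GABA transporter, at 0.26 (0.07 to 0.44). Both were higher in treated cells at all 5 numbers, which the choice by p with the block favours.

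**Figure D3:**
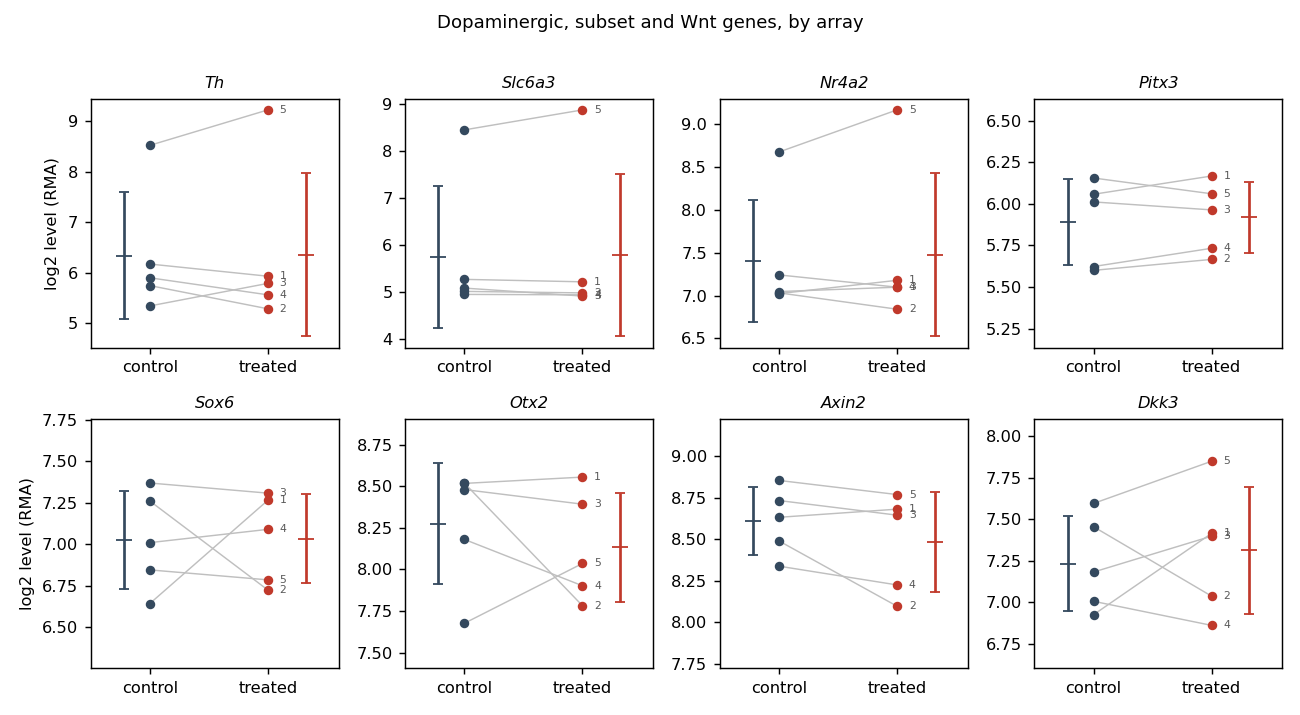
Log2 levels of dopaminergic genes (Th, Slc6a3, Nr4a2, Pitx3), subset factors (Sox6, Otx2), the Wnt feedback gene Axin2 and Dkk3 on control (dark) and treated (red) arrays; grey lines join equal replicate numbers, numbers stand beside the treated points, and bars give mean and SD (n = 5). The arrays numbered 5 are highest for Th, Slc6a3 and Nr4a2 in both groups, and the groups overlap in all 8 panels.

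The genes of the added proteins themselves were measured as the cells' own transcripts. Dkk3 lay at 7.42, 7.04, 7.40, 6.86 and 7.85 on treated and at 6.92, 7.46, 7.18, 7.01 and 7.59 on control arrays, a difference of 0.08 (-0.21 to 0.37 with the block). Wnt1 lay at 3.89 to 4.17 on treated and 3.96 to 4.26 on control arrays, and differed by -0.05. Dkk1, an inhibitor that binds LRP6, differed by 0.14 (-0.12 to 0.41) and Dkk2 by 0.12 (-0.17 to 0.42). Of the 7 Dickkopf and Kremen genes, 0 reached an unadjusted p under 0.05 in either model. At that limit, 1.07% of all genes were higher and 0.431% lower without the block, and 2.56% and 1.64% with it. In a list this short, 0 is near those shares.

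Among the 19 measured Wnt ligands, 0 reached an unadjusted p under 0.05 in either model. With the block, 2.56% of all genes were higher and 1.64% lower at that limit, so 0 is near the share over all genes. Wnt5b had the largest difference, 0.21 (-0.04 to 0.46 with the block), and Wnt2b differed by -0.13. Among 19 receptors and co-receptors, Fzd2 stood out by size. Fzd2, a Frizzled receptor, lay at 8.12, 8.77, 8.06, 7.72 and 8.62 on treated and at 8.21, 9.13, 8.54, 8.18 and 9.04 on control arrays. Treated cells were lower at all 5 numbers, while the groups overlapped. The difference was -0.36 (-0.90 to 0.18 without and -0.56 to -0.17 with the block), and it did not pass (limma adjusted p = 0.999 with the block, unadjusted p = 0.00221). Lrp6, the co-receptor of WNT1, was also lower at all 5 numbers, with a difference of -0.16 (-0.36 to 0.03). Ror2, a receptor of the planar polarity branch, differed by -0.20 (-0.42 to 0.01).

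No target of beta-catenin passed the test. Axin2, a direct target that feeds back on the pathway, lay at 8.68, 8.10, 8.64, 8.22 and 8.77 on treated and at 8.63, 8.49, 8.73, 8.34 and 8.85 on control arrays. Treated cells were lower at 4 of 5 numbers, and the difference was -0.13 (-0.46 to 0.21 without and -0.32 to 0.07 with the block). Nkd1, another feedback inhibitor, was lower in treated cells at all 5 numbers, with a difference of -0.13 (-0.31 to 0.04). Lef1, a partner of beta-catenin on DNA, differed by 0.07 (-0.12 to 0.25), Sp5 by -0.05 (-0.25 to 0.14) and Ccnd1, cyclin D1, by 0.07 (-0.12 to 0.27). Of 25 measured feedback and target genes, 0 reached an unadjusted p under 0.05 in either model, and the median difference was 0.02, as over all genes. The 25 other listed genes of Wnt signalling that act inside the cell, with Porcn at 0.24 and Pygo2 at 0.15 the largest, likewise held 0. So did the 23 genes of the planar polarity and calcium branch, with Camk2b at 0.23 and Prickle2 at -0.23. Over all genes, 2.56% were higher and 1.64% lower at that limit with the block, so 0 in such lists is near those shares.

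Of the 14 other secreted modulators of Wnt signalling, Sfrp4 was the 1 member at an unadjusted p under 0.05 with the block. At that limit 1.64% of all genes were lower. Sfrp4, a secreted Frizzled-related protein that binds Wnts, lay at 4.80, 5.48, 4.92, 4.54 and 7.03 on treated and at 5.27, 6.26, 5.27, 4.91 and 7.80 on control arrays. Treated cells were lower at all 5 numbers, with differences of -0.78 to -0.35. The mean difference was -0.55 (-1.85 to 0.76 without and -0.77 to -0.33 with the block), and it did not pass (limma adjusted p = 0.999 with the block, unadjusted p = 0.000282). Rspo2, an R-spondin that enhances Wnt signalling, differed by -0.34 (-0.83 to 0.15).

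In other developmental pathways few genes had small p-values. Of 24 TGF-beta and BMP signalling genes, 3 were at an unadjusted p under 0.05 with the block and lower (1.64% of all genes). They were Tgfb1, a ligand, at -0.20, its receptor gene Tgfbr1 at -0.22, and the ligand gene Bmp7 at -0.24. Each was lower in treated cells at all 5 numbers, which the choice by p with the block favours. In the whole list, 12 genes had a higher and 12 a lower mean in treated cells. The list's median difference was -0.02. Its sign turned without treated array 3 or control array 5 in the unblocked means, and not without both arrays numbered 5. Inhba, the gene of the activin A subunit, differed by 0.25 (-0.07 to 0.57). Among 14 hedgehog and floor plate genes, 1 was at an unadjusted p under 0.05 with the block. It was Slit1, an axon guidance ligand, at 0.27 (0.06 to 0.48), where 2.56% of all genes were higher. Hey1, a Notch target, lay at 8.51, 7.87, 7.94, 7.27 and 7.47 on treated and at 6.56, 7.91, 7.64, 7.55 and 7.56 on control arrays. Control array 1 was the lowest of all 10, the mean difference was 0.37, and its interval was -0.25 to 0.99 with the block.

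Beyond Mir17, the named genes with the smallest unadjusted p in the model with the block differed in the same direction at every number, and none passed. That p is smallest where differences are even across numbers, so the shared direction follows largely from the choice. Of all genes, 720 (3.61%) were higher and 441 (2.21%) lower at all 5 numbers. The size of the difference in the named genes varied between numbers, from -0.31 to -1.09 in Zfp455, for example, and less in Fxyd6, from 0.32 to 0.48. On the higher side these were Fxyd6, a regulator of the sodium pump, Esrrg, an orphan nuclear receptor, Xirp1, an actin-binding protein of muscle, Haghl, Itpa, which clears inosine triphosphate, P2rx6, a subunit of ATP-gated channels, Tmem145 and Ttc5. Their differences were 0.33 to 0.45 and their unadjusted p 0.000485 to 0.00198. Fxyd6 lay at 9.38, 9.05, 8.84, 8.17 and 9.59 on treated and at 8.90, 8.65, 8.50, 7.85 and 9.12 on control arrays, a difference of 0.40 (0.23 to 0.57 with and -0.23 to 1.03 without the block). Esrrg lay at 6.35, 5.86, 6.17, 6.02 and 6.46 on treated and at 5.92, 5.47, 5.80, 5.72 and 5.89 on control arrays, a difference of 0.41 (0.23 to 0.59 with and 0.12 to 0.70 without the block). In both genes the groups overlapped, and in both the numbers differed among themselves by more than treated from control.

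On the lower side, besides Sfrp4, these were Zfp455, a zinc finger gene, Moxd1, a monooxygenase related to dopamine beta-hydroxylase, Trim30d, of the TRIM family, Tmem100, Rpp38, a subunit of RNase P, Nectin4, an adhesion molecule, and Iigp1, an interferon-inducible GTPase. Zfp455 lay at 4.33, 5.02, 4.86, 4.18 and 4.41 on treated and at 4.65, 6.11, 5.54, 5.27 and 4.83 on control arrays, a difference of -0.72 (-1.01 to -0.43 with the block). Iigp1 lay at 7.17, 7.44, 7.24, 7.45 and 8.85 on treated and at 7.52, 8.20, 7.93, 7.67 and 9.08 on control arrays, a difference of -0.45 (-0.69 to -0.21). The remaining 5 differed by -0.48 to -0.38. All 8 were lower in treated cells at all 5 numbers, which the choice by p with the block favours, and all overlapped between the groups.

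**Figure D4:**
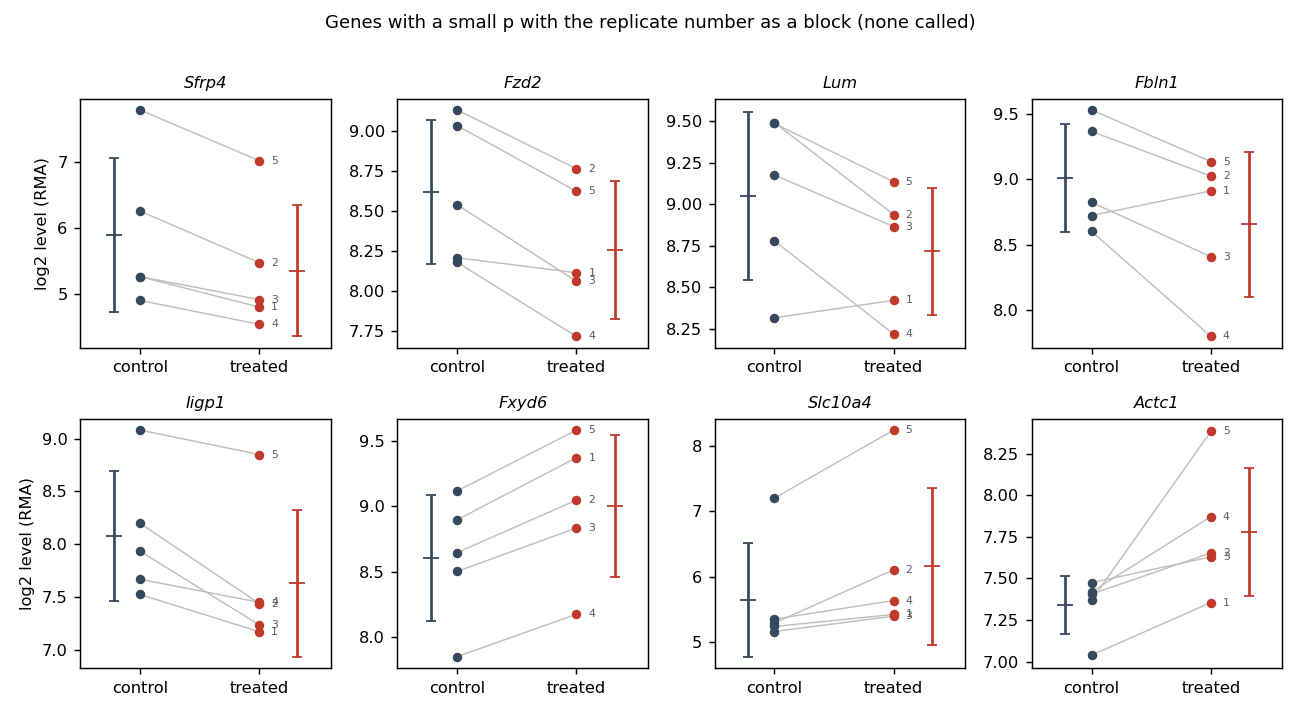
Log2 levels of genes with a small unadjusted p in the model with the replicate number as a block, on control (dark) and treated (red) arrays; grey lines join equal numbers, which the titles do not call pairs, and bars give mean and SD (n = 5). Sfrp4, Fzd2 and Iigp1 are lower and Fxyd6, Slc10a4 and Actc1 higher in treated cells at all 5 numbers, Lum and Fbln1 are lower at 4 of 5, and none of the 8 passed the adjusted threshold.

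A second view that needs no block is which genes had groups that did not overlap. All 5 treated arrays were above all 5 control arrays for 37 genes (0.186% of all) and below them for 19 (0.0953%). Without the 25% of genes with the lowest mean, 19 and 8 remained. Of the genes named next, Hfm1 and Fam24a lay at or below the lower quartile of genes on every array. Apart from Mir17, the named genes with the largest differences upward were Atoh8, a helix-loop-helix factor, Hfm1, a helicase of meiosis, Ivns1abp, Erg, an ETS factor of endothelium and blood, Cdh24, a cadherin, Cchcr1, Fam24a and Crnde, a long noncoding RNA. Atoh8 lay at 7.00, 6.48, 6.40, 6.34 and 6.72 on treated and at 6.20, 6.31, 6.25, 6.22 and 6.01 on control arrays, a difference of 0.39 (0.11 to 0.67 without the block). Its groups are separated by a narrow margin, 6.34 against 6.31. Ivns1abp lay at 8.33 to 8.58 on treated and 8.01 to 8.27 on control arrays, a difference of 0.33 (0.15 to 0.51), and Cdh24 at 6.46 to 6.74 and 6.19 to 6.35, a difference of 0.31 (0.14 to 0.48). Where Hfm1, Ivns1abp and Cdh24 were taken as the mean of their probe sets, the differences were 0.12, 0.21 and 0.20.

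Downward, Eif2ak3 had the largest difference among the named genes without overlap. Eif2ak3 encodes PERK, the kinase that, when unfolded protein builds up in the endoplasmic reticulum, slows translation by phosphorylating eIF2alpha. It lay at 7.08, 7.12, 6.99, 7.20 and 7.17 on treated and at 7.42, 7.60, 7.41, 7.63 and 7.29 on control arrays. The difference was -0.36 (-0.55 to -0.17 in either model) and did not pass (limma adjusted p = 1.0 without and 0.999 with the block). Of 22 genes of the unfolded protein response and the eIF2alpha kinases, Eif2ak3 and Chac1, a glutathione-degrading target of the response, at -0.24 (-0.47 to -0.01 with the block), were at an unadjusted p under 0.05 with the block, where 1.64% of all genes were lower; 15 had a higher and 7 a lower mean in treated cells. The other genes named on this side were Stoml3, Caml, which inserts tail-anchored proteins into the endoplasmic reticulum, Pycrl, an enzyme of proline synthesis, Coq2, of coenzyme Q synthesis, Ces1g, a carboxylesterase, Bsph2 and Mtarc1, with differences of -0.34 to -0.21.

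Genes of growth, metabolism and neuronal maturation were described as lists. Of 19 genes of cholesterol synthesis, 17 had a higher mean in treated cells, as did 56.6% of all genes, with a median difference of 0.08 against 0.02 over all genes. At an unadjusted p under 0.05 with the block and higher (2.56% of all genes) were 2, Mvd at 0.29 (0.02 to 0.55 with the block) and Pmvk at 0.23, both enzymes of the mevalonate pathway. At number 1 the list's median was -0.11, and at numbers 2 and 5 it was 0.23 and 0.27. Of 24 cell cycle genes 0 were at an unadjusted p under 0.05 with the block in either direction. Their median was 0.03 over all numbers, 0.56 at number 2 and -0.23 at number 1. Cdk1, the mitotic kinase, lay at 8.46, 9.43, 8.47, 8.45 and 6.30 on treated and at 8.61, 8.42, 8.51, 8.23 and 5.79 on control arrays. Treated array 2 was the highest and both arrays numbered 5 were the lowest. Of 28 synaptic and mature neuronal genes 1 was at an unadjusted p under 0.05 with the block and lower (1.64% of all genes). It was Gap43, a protein of growing axons, at -0.35 (-0.64 to -0.06 with the block). Gap43 was at 10.84 and 10.76 on the arrays numbered 5 and at 7.00 to 8.50 on the others. The sign of its difference turned without control array 5 in the unblocked means, and not without both arrays numbered 5. Of 23 axon guidance genes 1 was at that p and higher (2.56% of all genes), Robo2, a receptor of Slit ligands, at 0.25 (0.06 to 0.44). A count of 1 in lists of these sizes is near the share over all genes.

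Markers of other cell types that the samples could hold were read as well. Of 12 genes of fibroblasts and mesenchyme, 5 were at an unadjusted p under 0.05 with the block and lower in treated cells, where 1.64% of all genes were. They were Col3a1, a collagen, at -0.20, the matrix proteoglycan genes Dcn at -0.20 and Lum at -0.33, Pdgfrb, a growth factor receptor of mesenchyme, at -0.30, and Fbln1, a matrix protein, at -0.36. None passed the adjusted threshold, and 0 reached an unadjusted p under 0.05 without the block. In the whole list, 8 genes had a lower and 4 a higher mean in treated cells, and 1 was lower at all 5 numbers. Lum lay at 8.42, 8.94, 8.87, 8.22 and 9.13 on treated and at 8.32, 9.49, 9.18, 8.78 and 9.49 on control arrays, lower in treated cells at every number but 1. The list's median difference was -0.18 and, within the numbers, 0.09, -0.23, -0.20, -0.25 and -0.11. The log2 of the list's summed linear level was 12.56 to 13.55 on treated and 12.82 to 13.65 on control arrays. Sfrp4, Fzd2 and Moxd1, described above, were lower in treated cells at all 5 numbers, number 1 included, and the part of mesenchymal cells in those differences was not tested.

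Of 16 genes of skeletal and cardiac muscle, 15 had a higher mean in treated cells (56.6% of all genes). Actc1, cardiac actin, at 0.44 (0.16 to 0.72 with the block) and Mylpf, a myosin light chain, at 0.44 (0.12 to 0.76) were at an unadjusted p under 0.05 with the block and higher, as were 2.56% of all genes. Actc1 lay at 7.36, 7.65, 7.63, 7.87 and 8.38 on treated and at 7.04, 7.41, 7.47, 7.42 and 7.37 on control arrays. The list's median difference was 0.16 over all numbers and 0.71 at number 5. The sign of that median turned without treated array 5 in the unblocked means, and not without both arrays numbered 5. The list's log2 summed level was 10.59 to 11.80 on treated and 10.46 to 10.95 on control arrays. Xirp1, named above, is also a muscle gene, and the part of muscle cells in its difference was not tested.

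The other marker lists differed between the groups at single numbers and in opposite directions. All 10 epithelial genes and 6 of 7 trophoblast genes had a lower mean in treated cells, where 56.6% of all genes had a higher one. At numbers 2, 3 and 4, though, the epithelial median was 0.07, 0.23 and 0.17. At number 1 the median of 10 genes of astrocytes and radial glia was 0.84 and of 7 oligodendrocyte lineage genes 0.52, while 10 epithelial genes stood at -0.73 and 7 trophoblast genes at -0.93. Gfap, an intermediate filament of astrocytes, was at 10.53 on treated array 1 and 9.26 on control array 1, and Krt8, a keratin of simple epithelia, at 10.98 and 11.75. At number 2 the median of 12 pluripotency genes was 0.47, with Nanog at 10.14 on treated and 9.32 on control array 2. At number 5 the medians of muscle and choroid plexus genes were 0.71 and 0.57. At numbers 3 and 4 all 36 lists lay between -0.28 and 0.29. Over all 5 numbers 0 genes of the pluripotency, astrocyte, microglia, endothelial, epithelial, trophoblast, lens, choroid plexus, glutamatergic, serotonergic and blood lists reached an unadjusted p under 0.05 in either model. Sox10 at -0.28, Sox17 at -0.24 and Slc32a1 at 0.26 were the single members of the oligodendrocyte, endoderm and GABAergic lists that reached it with the block. At that limit 2.56% of all genes were higher and 1.64% lower. In the oligodendrocyte list Sox10 was the 1 gene with a lower mean in treated cells, and 6 had a higher one. The endoderm list held 4 genes with a higher and 5 with a lower mean, and the GABAergic list 5 and 5. The sign of the median turned under at least 1 alternative for 29 of the 36 lists. The exceptions were the lists of Wnt receptors, Notch genes, miR-17 clusters, unfolded protein response, cholesterol synthesis, mesenchyme and astrocytes, for which it kept its sign in all alternatives run.

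**Figure D5:**
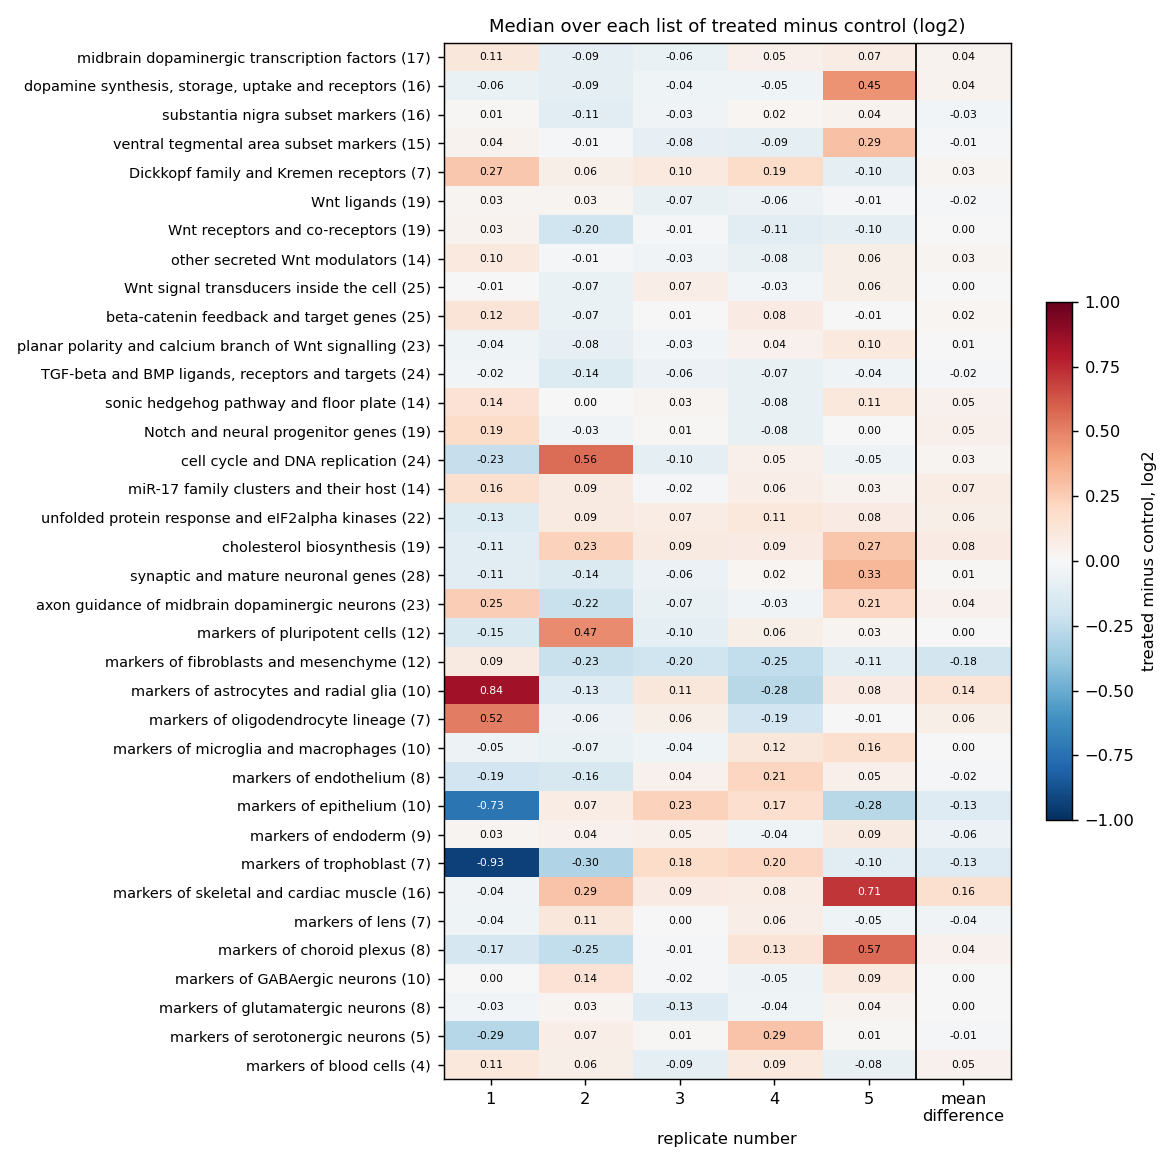
Median over the genes of each of 36 lists (number of measured genes in parentheses) of the treated minus control difference in log2 units, by replicate number (columns 1 to 5) and for the difference of group means (last column); red is higher and blue lower in treated cells. The deepest colours sit at number 1 (astrocytes 0.84, trophoblast -0.93), number 2 (cell cycle 0.56) and number 5 (muscle 0.71), and the last column holds values of -0.18 to 0.16.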

How the data were processed

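For the 10 arrays, the authors deposited log2 levels of 35556 probe sets. RMA and Affymetrix Expression Console 1.2 are named in the submitters' processing notes. RNA came from RNeasy kits, per the labels' protocols, and was amplified (Ovation PicoSL WTA System V2), which can add spread between arrays. It is not stated whether all arrays were normalised together, and quantile normalisation leaves only relative levels. No detection call was used, so low levels have no stated background. Precision is limited by the number of arrays.

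The platform's probe table lists 23410 probe sets, 21789 with 1 symbol and 1621 with several, which were left out, as were the 12146 unlisted ones. Symbols of 21698 probe sets were looked up by Entrez ID in RefSeq (GRCm38.p6, names only). For 999 genes with several probe sets, the probe set of highest mean stood for the gene, which left 19938 genes. Treated minus control was tested with limma 3.58.1 under R 4.3.3 (lmFit, eBayes, two-sided, Benjamini-Hochberg over all genes, threshold 0.05), without a block (8 residual degrees of freedom) and with the replicate number as a fixed block (4), tested on simulated data. Intervals are 95% limits from these models and are not adjusted for the number of genes. Tables and figures were made in Python 3.11.15.

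The comparison, the 36 gene lists (533 genes, 505 measured) and the tests were chosen with earlier results of these data known, so no pattern is independent support. Named were 21 measured genes of the dopaminergic and Wnt pathways (Lmx1a was not measured here), genes past the threshold, the 8 per direction of smallest unadjusted p with the block, the 8 per direction of largest difference without overlap, and, by size of the difference, 2 members of each pathway list and 1 of each marker list (the rule allowed up to 3). Predicted genes and small RNAs were counted and not named among the genes of smallest p and of no overlap. Other members of the lists, and Prl7a1, were named after their values were seen. The alternatives were another block, filter, choice of probe set, scaling, variance model, array weights and left-out arrays.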

Additional observations from a re-analysis of the deposited data

Results flagged for a closer look

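In a group of 5, 1 array was counted as standing apart where its gap to the nearest other array was more than 0.71 of the group's range (Dixon's limit), which chance alone exceeds in about 1 in 20 groups. Over 210 groups of 5 values, for 105 named genes in treated and control cells, 40 values in 30 genes met it. Most lay on the arrays numbered 5, with 17 on treated array 5 and 15 on control array 5. The genes were chosen by name, lists and differences, not at random.

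Both arrays numbered 5 stood above the other 4 of their group for Th (9.22 treated, 8.52 control), Slc6a3 (8.87 treated, 8.44 control), Slc18a2 (8.25 treated, 7.44 control), Ddc (8.19 treated, 7.67 control), Nr4a2 (9.16 treated, 8.67 control), En1 (7.29 treated, 7.13 control), Aldh1a1 (9.64 treated, 8.98 control), Tmem145 (6.93 treated, 6.60 control), Slc10a4 (8.24 treated, 7.20 control) and Gfra1 (7.87 treated, 7.99 control). These include enzymes, transporters and factors of dopaminergic neurons. Treated array 5 alone met the limit, high in its group, for Calb1 (5.30), Lrp6 (8.52), Iigp1 (8.85), Camk2b (8.70), Prickle2 (6.43) and Gap43 (10.84). It was low in its group for Cdk2 (6.93). Control array 5 missed the limit there, yet was also the highest of its group for Calb1 (4.98), Lrp6 (8.61), Iigp1 and Gap43. Control array 5 alone met it, high in its group for Slit1 (6.50) and low for Itpa (7.61), Cdk1 (5.79), Ebp (6.21) and Dppa4 (5.56). Treated array 5 was also the lowest of its group for Itpa (7.79) and Cdk1. Here and below, alone means only that the same-numbered array of the other group did not meet the limit. Cdk1 and Cdk2 drive the cell cycle, and Dppa4 marks pluripotent cells.

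Treated array 1 alone was low in its group for Caml (6.73) and Mvd (6.77). Treated array 2 alone was high in its group for Hfm1 (4.89). Treated array 4 alone was low in its group for Porcn (7.50). Control array 1 alone was high in its group for Ces1g (4.78) and low for Hey1 (6.56). Control array 2 alone was low in its group for Xirp1 (4.58) and Wnt2b (6.22). Hey1, a Notch target, had its low value on control array 1, and was at 8.51 on treated array 1. Causes were not tested.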

How the results depend on the processing

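The titles do not state whether arrays with the same number form a pair, and the data do not settle it. Over genes, which are not independent, the deviations of same-numbered arrays from their group means correlated at 0.044 for number 1 and at 0.435 to 0.798 for numbers 2 to 5, against -0.514 to 0.526 for unlike numbers. Only 3 of 5 treated and 4 of 5 control arrays correlated best with their own number. With the replicate block the genes called went from 0 to 1 and those at an unadjusted p under 0.05 from 300 to 837. With the number as a random block (consensus correlation 0.389) they were 1 and 834.

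The 300 genes without the block became 158 without the lowest 25% of genes by mean, 811 when all probe sets were tested and 521 with array weights, and 279 to 420 with single arrays left out. The 837 genes with the block became 1541 over all probe sets and 625 to 1479 without both arrays of 1 number, the highest without number 1. The 1 call became 0 over all probe sets and 0 without both arrays of any number. The 56 genes without overlap became 27 without the lowest 25% of genes and 263 without number 5. Testing more probe sets or fewer genes, and requiring fewer arrays to be apart, changes such counts by construction; other causes were not tested. Mir17 was called in 7 of 32 settings, with differences of 0.88 to 1.06 and limma adjusted p of 0.0116 to 0.263 with and 0.152 to 1.0 without the block. Of 1575 values of named genes under alternatives, 3 moved by more than the SD between replicates, and 29 of 105 genes changed sign in at least 1 alternative. Of 540 list medians under alternatives, 1 moved by more than the SD between replicates, that of the Wnt ligands, at 0.04 without treated array 2. The median changed sign in at least 1 alternative for 29 of 36 lists.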
